A study of Homo sapiens with 6 samples.

Results

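CYBRD1 and 9 other genes of intestinal iron handling were followed in Caco-2, a line from a human colorectal adenocarcinoma whose cells come to resemble enterocytes in culture. The 10 genes are CYBRD1, SLC11A2, SLC40A1, HEPH, TFRC, TF, FTH1, FTL, HFE and HAMP. CYBRD1 was chosen because it had been seen to be lower with the siRNA against SDC1 in these same arrays, so its values are given as a description and carry no p. The other genes were added for their known roles, to ask whether CYBRD1 falls together with iron uptake, export and storage genes. A probe set was taken where the platform annotation gives it exactly 1 gene symbol, which found 38 probe sets of 9 of the 10 genes, out of 19775 genes measured in all. FTH1, the ferritin heavy chain, was not analysed here.

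Total RNA was profiled on 3 Affymetrix arrays of Caco-2 cells transfected with SDC1 siRNA and 3 arrays of Caco-2 cells transfected with a negative control siRNA. SDC1 encodes syndecan-1, a cell surface proteoglycan of epithelia. The sources used here give neither siRNA sequences nor a dose or time after transfection, and all 6 arrays come from the 1 cell line. The design calls the replicates independent without naming separate cultures, so p-values and errors measure array-to-array spread alone, possibly technical.

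Dietary iron is mostly ferric and has to be reduced before an enterocyte can take it up. CYBRD1 (duodenal cytochrome b) passes electrons from cytosolic ascorbate to ferric iron at the apical membrane, SLC11A2 (DMT1) carries the ferrous iron in, and ferritin, built of FTH1 and FTL chains, stores what is not used. SLC40A1 (ferroportin) exports iron at the basolateral side, HEPH (hephaestin) oxidizes it, and TF (transferrin) carries it in blood to cells that bear the receptor TFRC. The liver hormone hepcidin, encoded by HAMP, removes ferroportin from the membrane, and HFE is a partner of TFRC that acts in the control of hepcidin.

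All values are log2 signals relative to the median of the 6 arrays for each probe set, so they show differences between arrays and hold no absolute level. A rough brightness class (log2 signal of 8 or more, 4 to 8, or below 4) was read from the rounding steps of the values. The number of arrays limits the precision throughout. The targeted gene SDC1 had relative log2 signals of -0.50, -0.62 and -0.34 in the SDC1 siRNA arrays, against 0.37, 0.35 and 0.35 in the control siRNA arrays. Its log2 difference was -0.84 ± 0.08 (standard error of the fit; limma adjusted p = 0.0238). That call was lost in each fit that left out 1 array and with the replicate number as a block (limma adjusted p = 0.0929). Control siRNA replicate 2 stood apart from the other arrays, with a median absolute log2 difference of 0.122 to 0.149 from each of them, while the 10 other pairs lay between 0.0897 and 0.115. Of 12 enterocyte and epithelial markers, 8 were in the 2 brighter classes, among them VIL1, CDX2, CDH1 and EPCAM, while KRT20, SI, FABP1 and APOA1 were in the class below 4. Of the 12, 10 were above 0 (median log2 difference 0.05), beside 10300 of all 19775 genes (median 0.006), and 0 passed the threshold. Of 4 leukocyte markers, PTPRC and LYZ were in the class below 4, and CD3E and CD14 in that from 4 to 8. COL1A1 (fibroblast) and VWF (endothelium) were in the class of 8 or more. COL3A1, DCN, PDGFRB, CDH5 and PECAM1 were in that from 4 to 8, so the class did not set epithelial markers apart. Of 11 measured markers of leukocytes, fibroblasts and endothelium 0 passed, and at an unadjusted p under 0.05 there were 2 of 4 fibroblast markers (both lower), 2 of 3 endothelial ones (both higher) and 1 of 4 leukocyte ones (higher), against 10.6% of all genes (5.19% lower and 5.43% higher). Their part in the results was not tested. Values of the GAPDH and ACTB control probe sets at the 3′ end minus those at the 5′ end overlapped between the groups.

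CYBRD1 did not overlap between the groups, with all 3 SDC1 siRNA arrays below all 3 control siRNA arrays. Its relative log2 signal was -0.36, -0.42 and -0.35 with SDC1 siRNA, against 0.17, 0.43 and 0.33 with control siRNA. The means were -0.38 ± 0.04 with SDC1 siRNA and 0.31 ± 0.13 with control siRNA (SD, n = 3 each). The log2 difference was -0.69 ± 0.08 (standard error), a 1.61-fold lower signal, with a 95% interval from -0.88 to -0.50. As CYBRD1 was chosen for this difference, the size may be overstated, and the interval is a description and no test. The SDC1 siRNA arrays lay close together, and the control siRNA arrays spread more, with replicate 1 the lowest. In bulk RNA, fewer cells that express a gene and less of its RNA per cell cannot be told apart. Without control siRNA replicate 2, the array that stood apart, the difference was -0.63 ± 0.08.

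Both CYBRD1 probe sets, each in the class from 4 to 8, were lower with SDC1 siRNA. Probe set 222453_at was at -0.22, -0.47 and -0.60 with SDC1 siRNA, against 0.22, 0.53 and 0.43 with control siRNA. Probe set 217889_s_at was at -0.50, -0.37 and -0.11 with SDC1 siRNA, against 0.11, 0.33 and 0.23 with control siRNA. Their log2 differences were -0.83 ± 0.12 and -0.55 ± 0.12. The control arrays kept the same order in both probe sets, whereas the 3 SDC1 siRNA arrays ran in opposite order, so the narrow spread of the gene's mean in that group came from averaging probe sets that each spread more widely (SD 0.19 and 0.20).

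**Figure D1:**
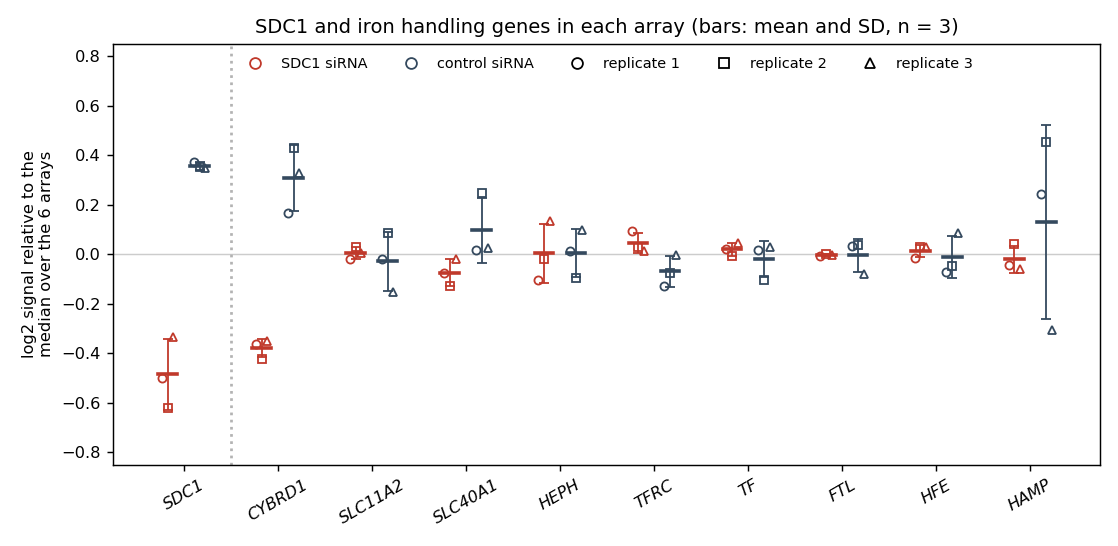
Relative log2 signal (y axis) of SDC1 and the 9 measured iron genes in each of the 6 arrays, with SDC1 siRNA in red on the left and control siRNA in dark blue on the right of each pair. Marker shapes give the replicate, and bars give the mean and SD (n = 3). SDC1 and CYBRD1 are set far apart between the groups, at -0.38 against 0.31 for CYBRD1, while the other genes lie near 0 and HAMP has the widest control spread.

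The sequence before the CYBRD1 start is shown because this is the gene with the large difference. That before the TFRC start is shown because TFRC was the 1 member whose gene value was higher in every SDC1 siRNA array. Both are the 250 bases upstream of a RefSeq start in GRCh38.p14, written on the gene's own strand. For CYBRD1, which has 2 annotated starts, the outer one was used (chr2:171521983-171522232, plus strand). The TFRC stretch is chr3:196082091-196082340 on the minus strand. Capitals mark ACGTG, a core sequence bound by hypoxia-inducible factors such as EPAS1, and the CYBRD1 stretch holds none. EPAS1 is known, mainly from mice, to raise the duodenal transcription of Cybrd1, Slc11a2 and Slc40a1.
CYBRD1: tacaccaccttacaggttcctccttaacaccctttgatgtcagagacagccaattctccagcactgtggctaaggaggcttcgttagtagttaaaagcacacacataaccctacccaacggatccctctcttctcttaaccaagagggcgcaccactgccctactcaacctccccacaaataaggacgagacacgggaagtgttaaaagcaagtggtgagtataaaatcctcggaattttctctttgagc
TFRC: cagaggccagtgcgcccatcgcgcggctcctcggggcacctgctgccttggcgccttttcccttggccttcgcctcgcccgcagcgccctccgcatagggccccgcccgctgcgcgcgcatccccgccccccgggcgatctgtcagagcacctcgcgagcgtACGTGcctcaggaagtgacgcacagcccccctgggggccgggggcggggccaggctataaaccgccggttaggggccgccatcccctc
ACGTG was searched on both strands (CACGT is its reverse complement) in the 300 bases from 250 before to 50 after each start. It occurred in 21.4% of 35116 such windows. Among 16 windows of the 9 members with an entry, it was found for TFRC at position -88, for FTL at -11, for HFE at -10 and for 1 of the TF starts at 29. No match was found in the 2 windows of CYBRD1, the 4 of SLC11A2 or the 1 of SLC40A1. Only ACGTG was searched, so other forms of the core were not covered. A match or its absence in these windows is a description of the letters and no evidence of binding.

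The ferrous iron carrier SLC11A2, which works directly after CYBRD1 at the apical membrane, had relative log2 signals of -0.02, 0.03 and 0.00 with SDC1 siRNA, against -0.02, 0.09 and -0.15 with control siRNA. The groups overlapped. Its log2 difference was 0.03 ± 0.08 (standard error), with a 95% interval from -0.15 to 0.21. The 5 probe sets of SLC11A2 ran from -0.02 to 0.13, and 0 of them separated the groups. The gene's value rests on 2 of them, in the class of 8 or more.

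The exporter SLC40A1 had relative log2 signals of -0.08, -0.13 and -0.02 with SDC1 siRNA, against 0.02, 0.25 and 0.03 with control siRNA. All SDC1 siRNA arrays lay below all control siRNA arrays, but the gap between the nearest arrays was small and control siRNA replicate 2 stood far above the rest. The log2 difference was -0.17 ± 0.08, with a 95% interval from -0.36 to 0.02 (limma adjusted p = 0.517). Without control siRNA replicate 2 it was -0.09 ± 0.07. This value comes from 1 bright probe set, 223044_at. The second, 233123_at, in the class below 4, was at 0.08 ± 0.14 with overlapping groups, and the mean of both gave -0.05 ± 0.09. The ferroxidase HEPH was measured only by 2 probe sets in the class below 4, at -0.02 ± 0.11 and 0.01 ± 0.10. Its arrays ran from -0.10 to 0.13 with SDC1 siRNA and from -0.09 to 0.10 with control siRNA.

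The transferrin receptor TFRC lay on the other side of 0. Its relative log2 signals were 0.09, 0.03 and 0.01 with SDC1 siRNA, against -0.13, -0.08 and 0.00 with control siRNA. All SDC1 siRNA arrays were above all control siRNA arrays, though the nearest arrays of the groups differed little. The log2 difference was 0.11 ± 0.07, with a 95% interval from -0.04 to 0.27 (limma adjusted p = 0.607). The 2 bright probe sets, 208691_at and 207332_s_at, gave 0.13 ± 0.09 and 0.10 ± 0.08. Of all 5 probe sets, only 207332_s_at separated the groups, so the separation is that of the mean of the 2 bright ones. Of the 3 dimmer ones, 237215_s_at was at 0.09 while 237214_at and 240686_x_at were at -0.09 each, and the mean of all 5 was 0.03 ± 0.07. The ligand TF was at 0.04 ± 0.07, with overlapping groups. Its 4 probe sets ran from -0.04 to 0.13, and 1 of them, 214064_at, was higher in every SDC1 siRNA array.

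Ferritin synthesis is controlled mainly at translation. When iron is scarce, the iron regulatory proteins ACO1 and IREB2 bind a hairpin, the iron-responsive element, in the 5′ untranslated region of ferritin mRNA and block its reading. The same proteins protect TFRC mRNA through hairpins in its 3′ untranslated region. The loop of the element begins with CAGTGN, written as DNA. It is shown for FTL, the storage gene measured here, because an array of mRNA does not read translation. Capitals mark the loop in the stretch at chr19:48965329-48965358 (GRCh38.p14, plus strand, RefSeq).
FTL: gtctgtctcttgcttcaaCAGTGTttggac
The loop starts 39 bases into the annotated transcript, and 6.36% of all windows hold CAGTGN on the transcript strand within the first 50 bases. Among the members, HAMP holds these letters in that window too, at position 24. A match of letters alone is no evidence of a hairpin, and bases further into the transcripts were not searched. FTL mRNA had relative log2 signals of -0.01, 0.00 and 0.00 with SDC1 siRNA, against 0.03, 0.04 and -0.08 with control siRNA. The groups overlapped, with the SDC1 siRNA arrays nearly equal to each other. Its log2 difference was 0.0017 ± 0.07, with a 95% interval from -0.15 to 0.16. Both FTL probe sets are in the class of 8 or more, and both are of the _x_at type, which can bind related transcripts. FTH1P5, a pseudogene copy of FTH1, was looked at after the values were seen. Its 1 probe set was at -0.0002 ± 0.08 (log2 difference), and its signal cannot be told apart from that of near-identical copies.

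The genes of systemic iron sensing showed no common direction. HAMP, hepcidin, had relative log2 signals of -0.04, 0.04 and -0.06 with SDC1 siRNA, against 0.24, 0.46 and -0.30 with control siRNA. The control siRNA arrays lay on both sides of the SDC1 siRNA arrays and had the widest spread of any member (SD 0.39, n = 3). The log2 difference was -0.15 ± 0.17, with a 95% interval from -0.54 to 0.23, and without control siRNA replicate 2 it turned to 0.01 ± 0.15. HFE was at 0.03 ± 0.07 over its 11 probe sets in the class from 4 to 8, all of the _x_at type. Its 15 probe sets ran from -0.34 to 0.22, with 7 above 0 and 8 below. At the ends, 235754_at (class below 4) was lower in every SDC1 siRNA array at -0.34 ± 0.10, and 211329_x_at was higher in every one at 0.22 ± 0.09.

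**Figure D2:**
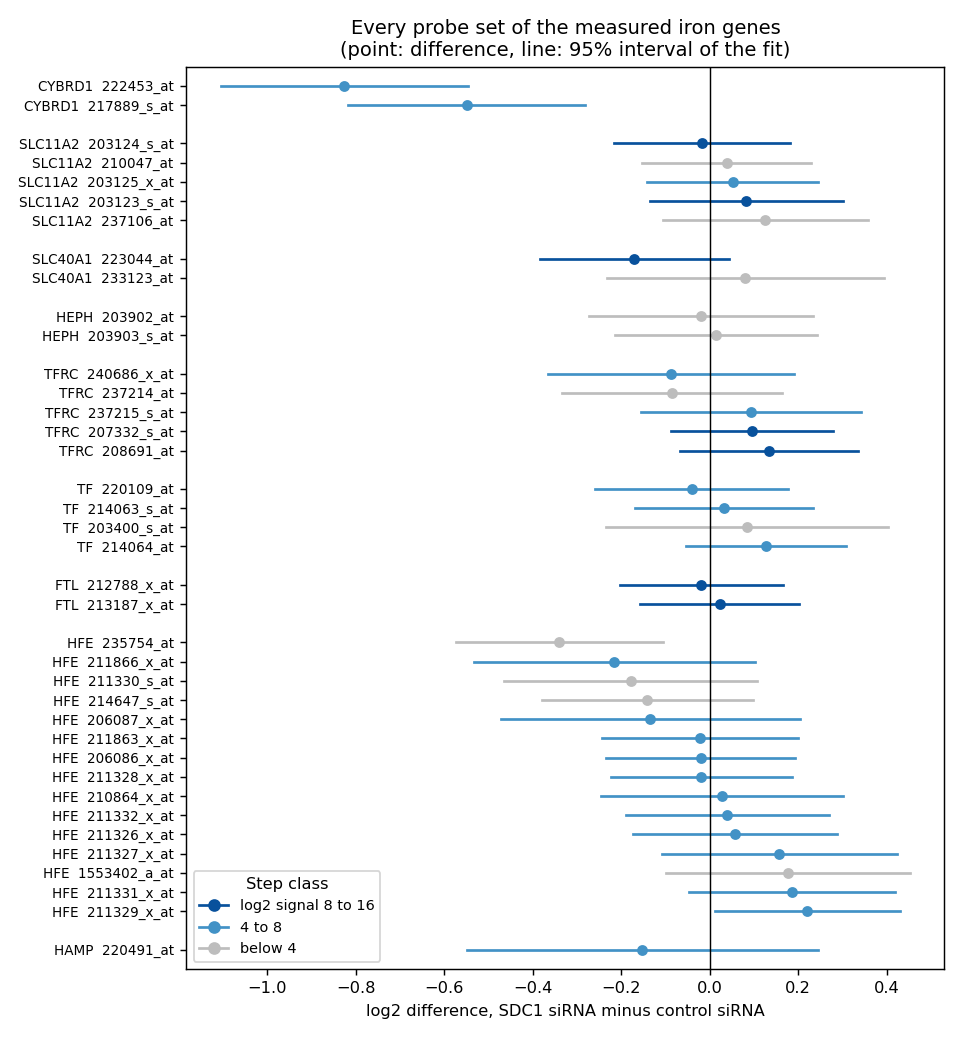
Log2 difference, SDC1 siRNA minus control siRNA (x axis), of each of the 38 probe sets of the 9 measured iron genes, with 95% intervals of the fit over all probe sets. Colours give the brightness class. Both CYBRD1 probe sets lie at the far left, at -0.83 and -0.55, and the other 36 run from -0.34 to 0.22 with a median of 0.025. The CYBRD1 intervals are a description, as the gene was chosen on this contrast.

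Across the members, CYBRD1 had the largest difference of the 9 measured, as its choice implies. The 8 other measured members ran from -0.17 (SLC40A1) to 0.11 (TFRC), with 5 above 0 and 3 below and a median log2 difference of 0.0133, beside a median of 0.006 over all genes. Limma with Benjamini-Hochberg adjustment over 19775 genes placed 0 of the 9 measured members past the threshold, where 0.0253% of all genes were called (5 genes). At an unadjusted p under 0.05, 0 of the 8 members other than CYBRD1 passed, against 10.6% of all genes. The adjusted p of these 8 lay between 0.517 and 0.996. A p that misses the threshold does not show that a gene is the same in both groups, and the intervals allow log2 differences of up to 0.27 in size for 6 of the 8, of -0.36 for SLC40A1 and of -0.54 for HAMP. The groups of arrays did not overlap in 3 of the 9 (CYBRD1 and SLC40A1 lower, TFRC higher), against 16.7% of all genes (8.47% lower and 8.26% higher). Of the 36 probe sets other than those of CYBRD1, 5 separated the groups, against 14.5% of all probe sets, and 0% of all probe sets passed an adjusted p of 0.05. As CYBRD1 was picked from this contrast, these counts are a description.

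A wider set of 101 iron genes in 9 lists, of which 92 were measured, held no gene past the adjusted threshold (0 of 92, lowest limma adjusted p = 0.218). At an unadjusted p under 0.05 there were 11 (12%, beside 10.6% of all genes), 6 higher and 5 lower with SDC1 siRNA. Of the 92, 48 were above 0 and 44 below, with a median log2 difference of 0.01. Over all 19775 genes, 10300 were above 0 and 9475 below. The groups did not overlap in 15 (16.3%, beside 16.7% of all genes).

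The next list joins other b561 proteins, relatives of CYBRD1, with the STEAP metalloreductases. Of 9 measured, 0 passed and 4 were at an unadjusted p under 0.05, 3 of them lower, against 10.6% of all genes (5.19% lower). All 4 are named to give this count in full, CYB561 and CYB561D1 after their values were seen. FRRS1, a ferric reductase with a b561 domain, was at -0.30 ± 0.08 (log2 difference ± standard error; limma adjusted p = 0.245) from the class below 4. CYB561, the reductase of secretory vesicles, was at -0.19 ± 0.08 and CYB561D1 at -0.17 ± 0.07, while the endosomal ferric reductase STEAP3 was at 0.19 ± 0.08. In the list of ascorbate and copper supply, 5 of 7 genes were below 0, beside 9475 of all 19775 genes. The list's median was -0.13, and 0 of its genes passed. It held ATP7B, a copper pump, at -0.19 ± 0.07 and the copper chaperone ATOX1 at -0.14 ± 0.07.

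Of 13 other iron carriers, receptors and ferroxidases, 0 passed and 10 were above 0, beside 10300 of all 19775 genes. The list's median was 0.10. SLC39A14, which takes up iron not bound to transferrin, was at 0.21 ± 0.06 (limma adjusted p = 0.309) with groups that did not overlap, and the ferritin receptor SCARA5 was at 0.17 ± 0.09. Of 9 genes of iron and oxygen sensing, 0 passed. The oxygen sensor EGLN1 was at -0.17 ± 0.08 and HIF1A at 0.19 ± 0.10. EPAS1 (-0.02 ± 0.07) and the iron regulatory protein ACO1 (0.08 ± 0.07) were picked for mention after their values were seen.

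In hepcidin control, 0 of 16 genes passed. STAT3, which carries the inflammatory signal to the hepcidin gene in liver, was at 0.36 ± 0.09 (limma adjusted p = 0.218), and BMP6, the liver's iron-dependent ligand, at 0.37 ± 0.13. Both were higher in every SDC1 siRNA array, with HAMP itself at -0.15 ± 0.17. For BMP6 the nearest arrays hardly differed, at 0.0011 in SDC1 siRNA replicate 3 and -0.0011 in control siRNA replicate 1. The groups did not overlap in 18.8% of this list, beside 16.7% of all genes. Of 13 genes of haem uptake, breakdown and export, 0 passed, with SLC46A1, a folate and haem carrier of the proximal gut, at 0.21 ± 0.07 and the exporter ABCG2 at -0.11 ± 0.07. The 7 genes of haem synthesis (CPOX at -0.18 ± 0.14, ALAD at -0.13 ± 0.10) and the 4 of ferritin loading and turnover (the iron chaperone PCBP2 at -0.17 ± 0.13 and HERC2 at 0.04 ± 0.08) held 0 at an unadjusted p under 0.05. Of 14 genes of iron-sulfur cluster assembly, 0 passed, with ISCA1 at 0.18 ± 0.07 and CIAO1 at -0.15 ± 0.06.

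**Figure D3:**
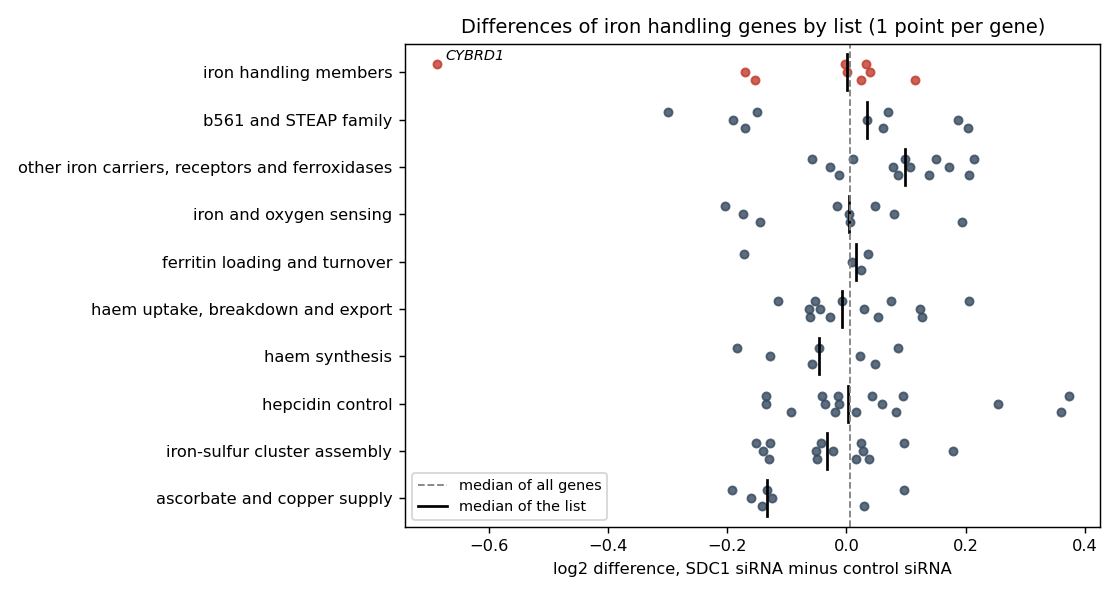
Log2 difference, SDC1 siRNA minus control siRNA (x axis), of the 9 measured members (red, top row) and of 92 other iron genes in 9 lists (dark blue), 1 point per gene. Black bars give each list's median, and the dashed line gives the median of all genes (0.01). CYBRD1, at -0.69, lies apart from all other points, which run from -0.30 to 0.37. This is a description, as CYBRD1 was chosen on this contrast.

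The genes whose profile over the 6 arrays was nearest to that of CYBRD1 were sought among 15058 genes of its brightness class or a brighter one. Likeness was the root mean square difference in log2 signal after each gene's mean over the arrays was taken off. CYBRD1 itself varied by 0.35 about its mean on this measure. The nearest were PLAAT4 (0.05), a retinoid-responsive phospholipase, MPDZ (0.08), a tight junction scaffold, the complement component C5 (0.08), the RAB exchange factor DENND4A (0.08) and the cadherin CDH10 (0.10). Their log2 differences were -0.63, -0.72, -0.69, -0.56 and -0.60. They were picked by their arrays, so no p is given, and nothing is said of shared control. SLC40A1 was the nearest member, at 0.26 and rank 812. The other ranked members lay between 0.36 and 0.41, at ranks from 6800 to 11424, and HEPH was not ranked because of its class. A gene flat over the 6 arrays would lie at 0.35, so ranks near that value say little of likeness to CYBRD1.

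**Figure D4:**
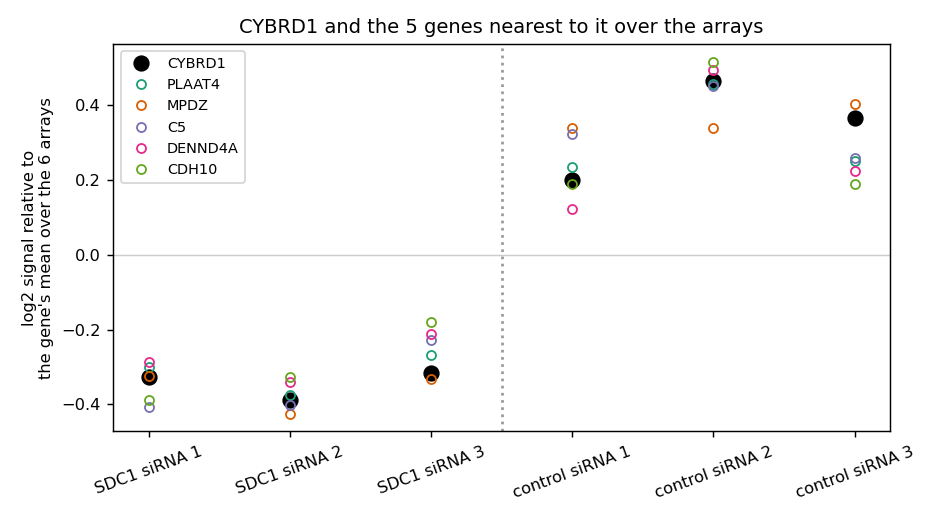
Log2 signal relative to each gene's mean over the 6 arrays (y axis) in the 3 SDC1 siRNA arrays (left) and the 3 control siRNA arrays (right), for CYBRD1 (filled black) and the 5 nearest genes (open circles). All 6 genes lie below 0 in the SDC1 siRNA arrays and above 0 in the control siRNA arrays.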

How the data were processed

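Gene expression was measured on 6 arrays. The deposited log2 values were made by the authors with RMA, per the submitters' processing notes, with no version named there. They are centred, with a median over the arrays of 0 for 54675 of 54675 probe sets (tolerance 1e-06). Brightness classes were read from the single-precision steps that the values keep (tolerance 0.15 step), and chance can place some probe sets a class too high.

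Probe sets with 1 symbol (41091) were averaged per gene within the gene's brightest class, with symbols updated through RefSeq (99.9% matched). The fit was limma 3.58.1 (R 4.3.3) over all 19775 genes with the group as the only term, Benjamini-Hochberg adjustment and a threshold of 0.05. Single probe sets were fitted over 54613. Standard errors are moderated, and intervals are 95%. The fit was tested on simulated data. An exact permutation test of 3 arrays against 3 cannot go below p = 0.1.

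The members, the lists and the averaging rule were chosen with earlier results of these data known. Named by rule, besides cell type markers, are SDC1, all members with their probe sets, the 2 genes of lowest p per iron list and any past the threshold, and the 5 genes nearest to CYBRD1. CYB561, CYB561D1, EPAS1, ACO1 and FTH1P5 were added outside this rule after their values were seen. Among the 38 probe sets are 25 of the _x_at and _s_at types, which can bind related transcripts. The sources used here name no batch. At most 52 of 19775 gene values were equal between any 2 arrays. As alternatives, a block for the replicate number, leaving out 1 array, a further quantile normalization, centring on array medians, array weights, a robust fit, other uses of probe sets and the brighter classes alone were run.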

Additional observations from a re-analysis of the deposited data

How the results depend on the processing

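CYBRD1 was lower with SDC1 siRNA under all 16 alternatives run, but much of this was fixed in advance. Its groups do not overlap, so leaving out 1 array could not turn the direction. The replicate block, the robust fit, the mean of all probe sets and the brighter classes kept -0.69 by construction. The CYBRD1 log2 difference was -0.83 with probe set 222453_at, which is also the value without _x_at and _s_at probe sets, and -0.55 with 217889_s_at. It lay between -0.76 and -0.63 when any 1 array was left out. The count of members past the threshold was 0, but 1 (CYBRD1) with array weights and 1 (CYBRD1) among genes of the brighter classes. As CYBRD1 was chosen from this contrast, that count is a description and no test of it. Over all genes, 39 were called with array weights and 11 of 15059 among the brighter classes, against 5 of 19775 in the main fit. The count of other iron genes past it was 0 throughout. SDC1 was lower throughout, between -0.92 and -0.78 with 1 array left out (limma adjusted p from 0.0615 to 0.326). It lost its call with the replicate block (-0.84), after quantile normalization again (-0.90) and as single probe sets (-0.83 and -0.85).

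The replicate block changed no call among the members or the other iron genes, and left 0 of 19775 genes past the threshold. The labels link same-numbered arrays through the number alone. The correlations of their deviations from the group means were -0.008, -0.26 and -0.11, and no array correlated best with its own number. With 3 arrays per group, these values cannot decide whether same-numbered arrays shared a culture or batch.

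Several members other than CYBRD1 changed direction in some settings, read at 2 decimals. They include those with the largest main differences, SLC40A1 (-0.17), HAMP (-0.15) and TFRC (0.11). HFE turned to -0.0139 when all its probe sets were averaged and to -0.0818 without _x_at and _s_at probe sets. Its single probe sets on that side were at -0.0208 (206086_x_at), -0.0191 (211328_x_at), -0.0221 (211863_x_at), -0.13 (206087_x_at), -0.14 (214647_s_at), -0.18 (211330_s_at), -0.22 (211866_x_at) and -0.34 (235754_at). With 1 array left out HFE ran from -0.005 to 0.0739. SLC11A2 turned to -0.017 with 203124_s_at, and ran from -0.0289 to 0.0896 with 1 array left out. SLC40A1 turned to 0.0802 with 233123_at, TF to -0.0408 with 220109_at, and TFRC to -0.0851 with 237214_at and -0.0874 with 240686_x_at. HAMP ran from -0.37 to 0.0092 with 1 array left out. FTL (0.0017) and HEPH (-0.0025) have main differences too small to hold a direction at 2 decimals, so they could not count as changed. With 1 array left out, FTL ran from -0.0371 to 0.0227 and HEPH from -0.0678 to 0.0516. The cause of these changes was not tested.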
